A study of Mus musculus with 2 samples.

Results

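Mir22 is 1 of the 2202 mouse miRNA genes listed in microRNA sequencing of heart tissue, and it was chosen by name as the gene called Mir22 in the GENCODE M21 annotation (ENSMUSG00000065529.1). It was read in 2 libraries, replicate 2 and replicate 1, which form 1 group. Each is from the heart of a male B6CASTF1/J mouse aged 25 days, the F1 cross of C57BL/6J with the wild-derived CAST strain, with no treatment or mutation named in the labels. The age label gives days, while the sample description attaches months to the same number; days are used here. Each animal has its own number in the labels, yet 1 donor identifier covers both. Were they 1 animal, the spread between the libraries would be technical.

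MicroRNAs are cut from hairpin transcripts into short single strands, which pair through bases near their 5′ end, the seed, with messenger RNAs and lower their output. Mir22 is abundant in heart and skeletal muscle. In mice, loss of Mir22 blunts the growth of heart muscle cells under stress and leads to dilation under pressure overload, while extra Mir22 enlarges heart muscle cells. The histone deacetylase Hdac4, the NAD-dependent deacetylase Sirt1 and the DNA-binding repressor Purb are described as its targets in mouse heart.

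The hairpin lies at chr11:75463716-75463810 on the plus strand of mm10 and is 95 bases long. It is shown with both mature arms in capitals, because reads of either arm fall into the same gene count, followed by each arm with its seed (bases 2 to 8) in capitals. The 5p arm is at chr11:75463734-75463755 and the 3p arm at chr11:75463772-75463793, and the sequences are those of RefSeq on GRCm38.p6, the assembly that mm10 is made from.
Mir22 hairpin: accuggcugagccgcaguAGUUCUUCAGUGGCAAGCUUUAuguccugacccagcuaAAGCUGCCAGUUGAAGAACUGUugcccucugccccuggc
mmu-miR-22-5p: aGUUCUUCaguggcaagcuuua
mmu-miR-22-3p: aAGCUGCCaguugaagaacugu

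Each arm is 22 bases long, with 16 bases between them. In the minimum free energy fold computed for the hairpin (-41.9 kcal/mol), 19 of the 22 bases of the 5p arm pair with the 3p arm, and the 7 seed bases of the 3p arm are all paired. Neither arm shares its seed with any other of the 1738 mature mouse miRNAs in the RefSeq table. With bases 2 to 7 only, the 5p arm has 2 partners, miR-6935-3p and miR-7092-3p, and the 3p arm has 0. The counts do not separate the arms, so the share of each was not measured.

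The hairpin is exonic. It lies inside exon 2 of both transcripts of the non-coding host gene Mir22hg (chr11:75461539-75466676, plus strand), 23 bases after the exon's start in each. In 1 of them, Mir22hg-202, that exon spans chr11:75463693-75463857 and is also exon 2 of a non-coding transcript of Tlcd2. Tlcd2 is the protein-coding gene that runs through the locus on the same strand. Among 141767 annotated transcripts of 55450 genes, a run of 20 bases of the hairpin, on either strand, occurred in Mir22, Mir22hg and Tlcd2 and in no other gene. These 3 share the 1 locus. The search covered annotated transcripts only and would miss a copy elsewhere in the genome.

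**Figure D1:**
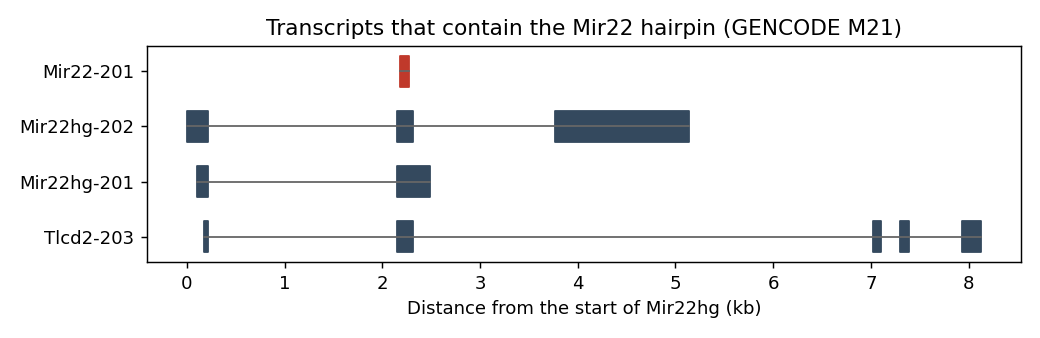
Annotated transcripts that contain the Mir22 hairpin, drawn to scale with the distance from the start of Mir22hg in kb on the horizontal axis. Boxes are exons and lines are introns. The hairpin (red, top row) falls within exon 2 of both Mir22hg transcripts and of 1 Tlcd2 transcript.

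To show what a site of the 3p arm looks like in its described targets, the letters GGCAGCT, which pair with the 3p seed, were searched on the mRNA strand of 3′ UTRs. Each line gives 30 bases of the GENCODE M21 transcript, 5′ to 3′, with the match in capitals.
Hdac4, chr1:91929847-91929876, minus strand: agattttgcacgccaaactcGGCAGCTttg
Sirt1, chr10:63320152-63320181, minus strand: tggcattttccaaaacttgtGGCAGCTaac
Purb, chr11:6472739-6472768, minus strand: tactgtattttgtactacaaGGCAGCTgtt

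Hdac4 and Sirt1 each held 1 match and Purb held 2, the other one beginning 5 bases into its UTR. The 3′ UTRs searched were the longest annotated for each gene, 4568 bases in Hdac4, 1631 in Sirt1 and 7313 in Purb. Among UTRs within 10% of the same length, the match was present in 30.9% for Hdac4, 17.3% for Sirt1 and 40.0% for Purb. Among all 21037 genes' UTRs it was present in 12.8%. A match is a description of letters. No mRNA was measured here, so nothing is shown about these genes in the 2 hearts.

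Mir22 had 107483 counts in replicate 2 and 42174 counts in replicate 1. The totals assigned to miRNA genes were 5229819 in replicate 2 and 4930853 in replicate 1. Scaled to a total of 1000000 counts (CPM), Mir22 stood at 20552 CPM in replicate 2, against 8553 CPM in replicate 1. The mean was 14553 ± 8484 CPM (SD, n = 2). It was high in both hearts and higher in replicate 2. The spread was 58.3% of the mean, so the mean stands for neither heart closely.

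As a share of assigned counts, Mir22 took 2.06% in replicate 2, with an exact 95% interval of 2.04 to 2.07% (Clopper-Pearson), against 0.855% in replicate 1, with one of 0.847 to 0.863%. These intervals cover counting error only, since PCR copies of 1 molecule are not told apart. Of all reads, which include those that were unmapped, placed at several loci or outside miRNA genes, Mir22 took 0.748% in replicate 2 and 0.319% in replicate 1. The intervals of the assigned share do not overlap between the libraries, but a difference beyond counting error was common. Of the 356 genes with at least 10 counts in both libraries, an exact binomial test called 63.5% at an adjusted p under 0.05.

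The strand of the reads was the strand of the gene. The opposite-strand count at Mir22 was 0 in both libraries. Read as up to 3 counts, roughly a 95% limit of counting error, that is 0.00279% of its own-strand count in replicate 2 and 0.00711% in replicate 1. The unstranded count was equal to the own-strand count in both libraries, 107483 in replicate 2 and 42174 in replicate 1. No other annotated miRNA gene overlaps it, unlike Mir378a, which the unstranded column lists at 0.

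Among all 2202 genes, Mir22 ranked 12 in replicate 2 and 21 in replicate 1, and by its mean level it ranked 14. In replicate 2, 673 genes had at least 1 count, and in replicate 1, 675 had. Mir22 stood 366 times above the median of the 356 detected genes (at least 10 counts in both libraries) in replicate 2, and 144 times above it in replicate 1. The 11 genes above it held 69.7% of assigned counts in replicate 2, and the 20 genes above it held 83.4% in replicate 1. Reads placed at several loci, 37.4% of all reads in replicate 2 and 41.6% in replicate 1, are in no gene's count. Genes with near-identical copies, such as the Mir1a and Mir133a genes, may therefore be listed too low, and the rank of Mir22 is a rank among reads assigned to 1 gene.

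**Figure D2:**
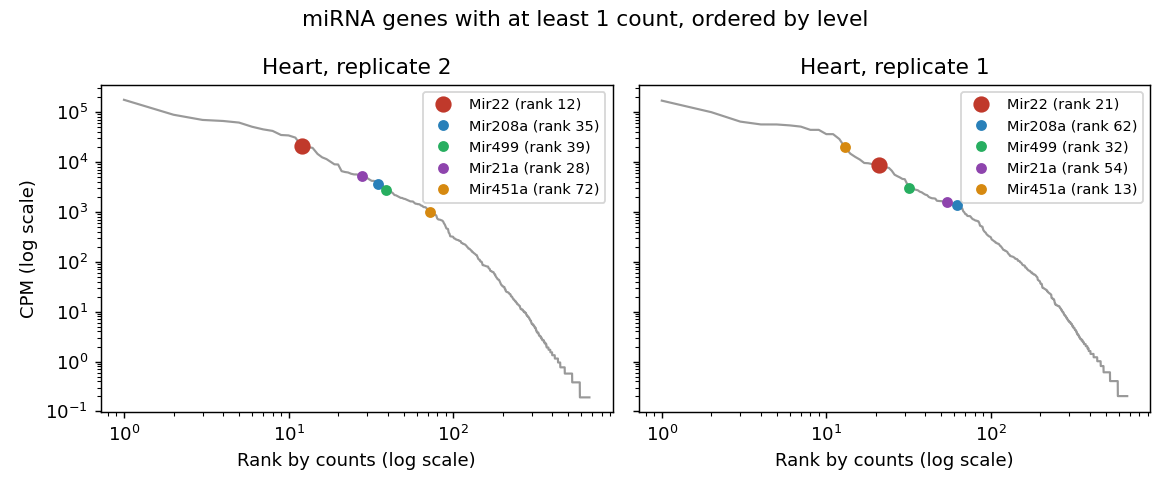
Level in CPM against rank for every miRNA gene with at least 1 count, in replicate 2 (left) and replicate 1 (right), both axes on log scales. Mir22 sits at rank 12 in replicate 2 and rank 21 in replicate 1; Mir208a, Mir499, Mir21a and Mir451a are marked for comparison.

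The genes next to Mir22 in rank differed between the libraries. In replicate 2 the 3 genes just above it were Mir143, a smooth muscle miRNA, at 34638 CPM, Mir99a at 33960 CPM and Mir23a at 30701 CPM. The 3 just below were Mir30d at 19971 CPM, Mir26b at 19091 CPM and Mir149 at 14467 CPM. Mir22 exceeded Mir30d there by 1.03 times (exact 95% interval 1.02 to 1.04) and stood at 0.669 times Mir23a (0.664 to 0.675). In that library the order therefore held beyond counting error on both sides.

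In replicate 1 the 3 genes just above Mir22 were Mir93 at 9409 CPM, Mir149 at 9060 CPM and Mir652 at 8954 CPM. The 3 just below were Mir100 at 7825 CPM, Mir125a at 7754 CPM and Mirlet7e at 7603 CPM. Mir22 stood at 0.955 times Mir652 there (exact 95% interval 0.943 to 0.968) and exceeded Mir100 by 1.09 times (1.08 to 1.11). Of these genes, Mir30d, Mir26b, Mir149, Mir652 and Mir93 changed sides of Mir22 between the hearts. Outside these neighbours, Mir191, Mir30a, Mir99b and Mir451a changed sides as well. Over both hearts, the order of Mir22 and each gene that changed sides is not settled by 2 libraries.

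The detected genes whose levels were most like those of Mir22 were named by the Euclidean distance of log2 CPM over the 2 libraries. They were Mir149 (distance 0.51), Mir125a (0.75), Mir30d (0.78), Mir191 (0.93) and Mir30a (1.04). Mir149 stood at 14467 CPM in replicate 2 and 9060 CPM in replicate 1. Mir125a stood at 12350 CPM in replicate 2 and 7754 CPM in replicate 1. Mir30d stood at 19971 CPM in replicate 2 and 14634 CPM in replicate 1. These 3 genes were higher in replicate 2, Mir149 by 1.60 times, Mir125a by 1.59 times and Mir30d by 1.36 times, each less than Mir22. Mir191, at 1.02 times, and Mir30a, at 1.05 times, were nearly level between the hearts. A likeness over 2 libraries rests mostly on the level itself.

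Between the hearts, Mir22 was 2.40 times higher in replicate 2 (exact conditional 95% interval 2.38 to 2.43), a log2 ratio of 1.26. It passed the exact binomial test of the 2 libraries with Benjamini-Hochberg adjustment over detected genes, with a p too small to be held as a number. That test covers counting error and compares 2 libraries, not conditions. It called 63.5% of the 356 detected genes, and 32.9% were called as higher in replicate 2, so the call alone does not set Mir22 apart. Calls with a ratio over 2-fold and higher in replicate 2 made up 7.58% of the detected genes, and Mir22 was among them.

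Measured against the spread across genes, the difference was large but within the range of other miRNAs. The SD of the log2 ratio over detected genes was 0.86, and the ratio of Mir22 was 1.48 times that SD. In all, 9.27% of detected genes, or 33 with Mir22 counted, had an absolute log2 ratio at least as large, and 18 of these were higher in replicate 2. Of the 27 genes that averaged 5000 CPM or more, Mir451a alone had a larger absolute ratio, in the opposite direction. Of the 72 that averaged 1000 CPM or more, those at or beyond the ratio of Mir22 were Mir455, Mir34a, Mir21a, Mir208a and Mir22 itself, higher in replicate 2, and Mir451a and Mir144, lower there. The common biological coefficient of variation that edgeR gave for the 2 libraries was 0.386.

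**Figure D3:**
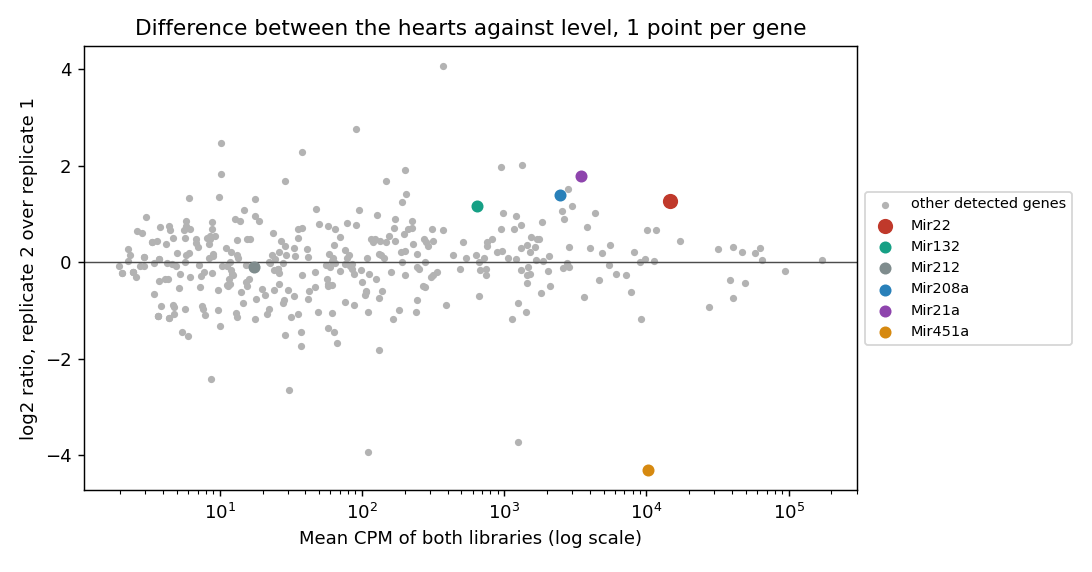
The log2 ratio of replicate 2 over replicate 1 against mean CPM (log scale), with 1 point for each of the 356 detected genes. Mir22 (red) lies at a log2 ratio of 1.26 at the abundant end of the plot, where Mir451a at -4.30 is the one gene of at least 5000 CPM farther from 0.

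Markers of the cell types of the heart differed between the libraries too, and their part in the difference of Mir22 was not tested. In bulk tissue, fewer cells of a type and less RNA per cell cannot be told apart. All 3 cardiac muscle markers, which lie in introns of myosin genes, were detected, and summed to 6512 CPM in replicate 2, against 4486 CPM in replicate 1. Of these, Mir208a was 2.62 times higher in replicate 2 (exact 95% interval 2.54 to 2.69), Mir499 stood at 0.940 times (0.919 to 0.962), and Mir208b was not called at 1.01 times (0.919 to 1.10). Mir22 differed in the direction of Mir208a, the only 1 of the 3 called higher, while the median log2 ratio of the 3 was 0.0085. The small deficit of Mir499 lost its call only with DESeq2 size factors, at a log2 ratio of -0.0039 (exact binomial test, adjusted p = 0.910). Those factors were 1 in both libraries. Under each other scaling Mir499 stayed called lower, at -0.135 with TMM factors and -0.110 with DESeq2 size factors from detected genes.

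Of the 4 fibroblast markers 3 were detected, and Mir199a-1, which has a near-identical copy, was at 0 counts in both libraries. They summed to 9524 CPM in replicate 2, against 3416 CPM in replicate 1, mostly from Mir21a and Mir214. Both red cell markers, Mir451a and Mir144, were detected and summed to 1161 CPM in replicate 2, against 21812 CPM in replicate 1. With these 2 genes left out of the library totals, the log2 ratio of Mir22 was 1.23, against 1.26 with them.

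Of the endothelial markers, Mir126a was detected and Mir126b, at 3 counts in each library, was not, and they summed to 69423 CPM in replicate 2, against 56393 CPM in replicate 1. Both smooth muscle markers were detected and summed to 36447 CPM in replicate 2, against 30025 CPM in replicate 1. All 4 leukocyte markers were detected and summed to 5126 CPM in replicate 2, against 4788 CPM in replicate 1. Within that list Mir142 was lower in replicate 2, at 0.540 times (exact 95% interval 0.505 to 0.576), Mir150, at 1.39 times (1.35 to 1.43), and Mir223, at 1.33 times, were higher, and Mir155 was not called at 0.994 times.

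Mir22 was set beside other miRNAs with described roles in cardiac growth, taken from 3 written lists. Of 29 genes in these lists, 25 were detected. By reads assigned to 1 gene, Mir22 was the third most abundant in both hearts, after Mir378a and Mir23a, an order that leaves out reads of genes with near-identical copies placed at several loci. Mature miRNAs are of similar length, so counts were not divided by length, but miRNAs are ligated to adapters with unequal efficiency, which enters any ratio of 2 different ones.

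The list of genes described as promoting hypertrophy in mouse held 12 members, of which 11 were detected. With Mir22, 4 were called higher in replicate 2, 3 were called lower and 4 were not called, against 32.9% higher and 30.6% lower over all detected genes. Its median log2 ratio was 0.0085, against 0.021 over all detected genes. With TMM scaling it held 4 higher and 4 lower members, as Mir155 joined the lower ones, and a median of -0.04. Over all detected genes, TMM scaling called 62.1% in either direction and 29.8% as higher, with a median of -0.025. With DESeq2 size factors the list held 5 higher and 2 lower. Over all detected genes, those factors called 62.1% in either direction and 36.8% as higher, with a median of 0.106. The members higher in replicate 2 besides Mir22 were Mir208a, Mir132 and Mir27b. Mir132, which targets the anti-hypertrophic factor Foxo3, stood at 890 CPM in replicate 2 and 394 CPM in replicate 1. Mir27b stood at 5788 CPM in replicate 2 and 2858 CPM in replicate 1. The members lower in replicate 2 were Mir23a, which targets the ubiquitin ligase Trim63 and stood at 30701 CPM in replicate 2 and 50994 CPM in replicate 1, Mir195a and, except with DESeq2 size factors, Mir499. Mir22 made up 29.9% of the summed level of this list in replicate 2 and 11.8% in replicate 1.

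Of 9 genes in the list described as restraining hypertrophy, 6 were detected, 4 were called higher in replicate 2 and 0 lower, against 32.9% higher and 30.6% lower over all detected genes. The median log2 ratio was 0.14, against 0.021 over all detected genes. The 4 called higher were Mir378a at 1.04 times, Mir98 at 1.16 times, Mir26a-1 at 6.80 times and Mir26a-2 at 1.62 times. Mir26a-1 and Mir26a-2 share a mature arm, so their counts, from 115 to 830, hold only reads assigned to 1 gene. Of all genes with at least 100 counts in both libraries, 45.5% were called higher. Mir378a, in an intron of the mitochondrial coactivator gene Ppargc1b, was the most abundant at 175614 CPM in replicate 2 and 169097 CPM in replicate 1. Mir22 stood far below it in both hearts. The Mir1a and Mir133a genes, which have near-identical copies, had from 3 to 203 counts, so the place of Mir22 above them holds only for reads assigned to 1 gene.

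All 8 genes of the remodelling and fibrosis list were detected, 6 were called higher in replicate 2 and 0 lower, against 32.9% higher and 30.6% lower over all detected genes. With DESeq2 size factors 7 were called higher, against 36.8% of all detected genes. Except for Mir29b-1 and Mir29b-2, the members had at least 100 counts in both libraries. Among all genes with such counts, 45.5% were called higher. The median log2 ratio was 0.61, against 0.021 over all detected genes. Mir29b-1 and Mir29b-2 share a mature arm, as do Mir24-1 and Mir24-2. Their counts, from 36 to 774, hold only reads assigned to 1 gene, so the 8 genes are not 8 separate measurements. Mir21a, known from cardiac fibroblasts, stood at 5341 CPM in replicate 2 and 1540 CPM in replicate 1. Mir214 stood at 4173 CPM in replicate 2 and 1868 CPM in replicate 1. Mir29a, of the family that represses collagens, stood at 3174 CPM in replicate 2 and 2530 CPM in replicate 1. Mir22 was above each of these 3 genes in both libraries.

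**Figure D4:**
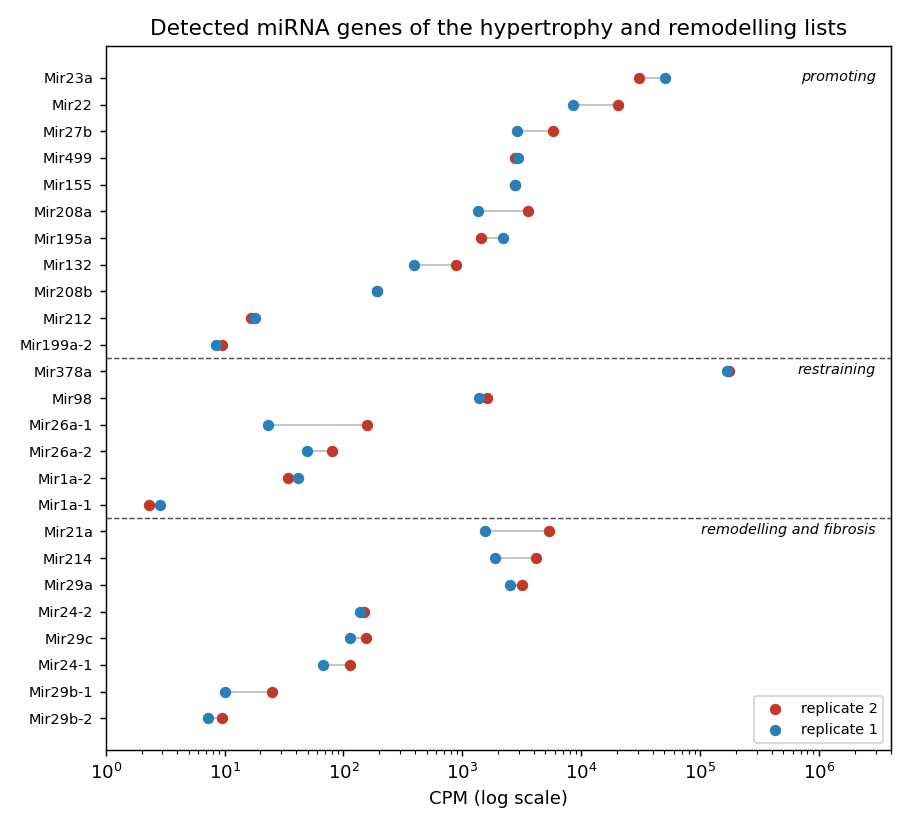
Level in CPM (log scale) of the 25 detected genes of the 3 lists in replicate 2 (red) and replicate 1 (blue), with a line joining the libraries of each gene. Mir22 stands at 20552 CPM in replicate 2 and 8553 CPM in replicate 1, below Mir378a and Mir23a in both. Genes with near-identical copies, such as Mir1a-1 and Mir1a-2, are drawn from uniquely placed reads alone.

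Around Mir22, chromosome 11 holds few miRNA genes. The nearest annotated miRNA gene after it, Mir3971, lies 87.6 kb away and had 0 counts in both libraries. With a count of 0 read as up to 3 counts, roughly a 95% limit of counting error, the level could reach 0.574 CPM in replicate 2 and 0.608 CPM in replicate 1. The nearest before it, Gm47300 on the other strand at 145 kb, also had 0 counts in both. Next before that come Mir132 and Mir212, 290 kb away on the same strand and described together in cardiac hypertrophy. Mir132 was 2.26 times higher in replicate 2 (exact 95% interval 2.14 to 2.38), close to the ratio of Mir22. Over all detected genes, 7.58% were called over 2-fold higher in replicate 2, and a link between Mir132 and Mir22 was not tested. On the other side, Mir423, the next miRNA gene after Mir3971, was 1.09 times higher in replicate 2 (1.06 to 1.12). Mir212, with 88 counts in replicate 2 and 89 in replicate 1, was not called, at 0.932 times (0.686 to 1.27).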

How the data were processed

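RNA shorter than 30 nucleotides was sequenced from total heart RNA, per the labels. The authors deposited raw counts of reads for each miRNA gene, made on mm10 with annotation M21, per the text files deposited with the samples. Which aligner and counter they used is not given in the sources used here. As mm10 is the C57BL/6J genome, reads of the CAST allele with a mismatch may have been lost. The own-strand count column was used. The 4 entries that name no gene held 63.6% of reads in replicate 2 and 62.7% in replicate 1 and were left out of totals.

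Levels are CPM, and log2 ratios use a pseudocount of 0.5 counts. Genes with at least 10 counts in both libraries were compared with an exact conditional binomial test (scipy 1.17.1), two-sided, adjusted by Benjamini-Hochberg at 0.05. The quasi-likelihood test of edgeR 4.0.16 needs a contrast, which 1 group lacks; edgeR gave the coefficient of variation and TMM factors, and DESeq2 1.42.0 gave size factors. The test was tried on simulated counts that held counting error alone, with the true scaling supplied. That trial does not cover variation between animals. Folding used RNAfold 2.7.2. Named genes are Mir22, the 3 genes on either side in rank, the 5 nearest by level, list members, and neighbours in the locus. Mir455, Mir34a and Mir99b were named after their values were seen. Mir22 and the lists were chosen with earlier results of these data known.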

Additional observations from a re-analysis of the deposited data

How the results depend on the processing

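Mir22 was higher in replicate 2, and called, under each of the 7 alternatives of scaling, total or column, with log2 ratios from 1.22 (TMM factors) to 1.35 (DESeq2 size factors). The DESeq2 factors were 1 in both libraries, as 49 of the 594 genes with counts in both had equal counts; factors from detected genes, chosen after seeing the data, gave 1.24. The 3 other count minimums leave its ratio as it is by construction, and it was called under each. Its mean level lay between 14458 and 20051 CPM under the other scalings and columns but was 5338 CPM when all reads made up the total, by construction a larger total. Leaving out each library in turn gave 8553 to 20552 CPM and a rank of 12 to 21. In the unstranded column its mean level ranked 12, since genes overlapping on the opposite strand are not counted there. The number of genes called was 226 of 356 (63.5%). It was 180 of 222 (81.1%) with a minimum of 100 counts, 237 of 594 (39.9%) with a minimum of 1 count and 217 of 2202 (9.85%) with no filter, and 201 to 221 under the other scalings and the unstranded column. Depth does not limit Mir22, but 2 libraries limit what its mean stands for. No paired analysis was possible because the labels give 1 group.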
